A study of Mus musculus with 18 samples.

Results

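The thyroid follicular transcription factors described here are 5 genes, Pax8, Nkx2-1, Foxe1, Hhex and Glis3, found by their symbols among the 24054 genes of each expression table. They were followed in RNA-Seq of the hypothalamus, pituitary and thyroid of male mice at 3 months of age, in 18 libraries that fall into 6 groups of 3. WT mice and K146Q mice were both untreated, of the strain C57BL/Ntac, and K146Q mice were homozygous for a whole-body knock-in that replaces a lysine of thyroid hormone receptor β (Thrb), a site of sumoylation shared by every isoform, by glutamine. The mouse numbers recur in each tissue (WT mice 1, 2 and 43, K146Q mice 60, 62 and 83), so that the 3 tissues of a number are taken as 1 animal, while the genotypes share no animal.

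Thyroid follicular cells make thyroid hormone, and their identity rests on a small group of transcription factors that are expressed together in few other places. Pax8, Nkx2-1, Foxe1 and Hhex are switched on together in the thyroid bud of the embryo, maintain each other's expression, and bind the promoters of thyroglobulin and other genes of hormone synthesis in the adult. Each is also used elsewhere without the others, Nkx2-1 in the ventral forebrain and lung and Hhex in the liver, endothelium and blood, and Glis3, a zinc finger protein needed for the response of follicular cells to thyrotropin, is used in pancreas and kidney as well.

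Levels are given as normalized CPM, read counts scaled to library size with the authors' scaling factor. The libraries held 14902330 to 21230050 reads, so that 3 reads were worth 0.133 to 0.190 CPM. Fold changes are differences of log2(CPM + 0.5), a scale that shrinks the change of low genes, and were tested with limma over all genes that reached 0.5 CPM in at least 3 libraries, the p-values adjusted by Benjamini and Hochberg's method and called under 0.05. An exact permutation test (two-sided, 3 mice of each genotype) is given beside it, and 0.1 is its smallest possible p.

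The tissue labels were checked against thyroglobulin (Tg), the hormone precursor, which was at 293440 to 357300 CPM in the WT thyroid and 131.79 to 169.68 CPM in the WT pituitary. In WT mice, 8 genes of hypothalamic neurons summed to 517 to 654 CPM in the hypothalamus, and 8 anterior pituitary genes to 133190 to 256650 CPM in the pituitary. One WT thyroid library, that of mouse 1, held the most RNA of pituitary genes. The summed level of these 8 pituitary genes ran from 137 to 598 CPM in the WT thyroids and from 100 to 156 CPM in the K146Q thyroids, and values without that library are given where it matters. Genes of some neighbouring tissues differed between the genotypes. All 5 parathyroid genes examined were lower in the K146Q thyroid, with sums of 10226 to 19295 CPM in WT mice and 1675 to 4759 CPM in K146Q mice. A large part of these sums was Chga, at 6741 to 12829 CPM in WT and 1148 to 3178 CPM in K146Q thyroids. Chga is also counted among the C cell genes, so the sums are not specific to the parathyroid. Of 6 adipose genes 5 were lower, and of 6 C cell genes 5 were lower and 1 was higher. Of 7 airway and oesophagus genes tested 1 was lower, and of 6 skeletal muscle genes 0 were called. The muscle genes varied widely within a genotype, with sums of 354 to 6721 CPM in WT and 788 to 3813 CPM in K146Q thyroids.

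Pax8 is a paired-box factor that lies on the minus strand of chromosome 2 (24420560 to 24475599, GRCm38, GENCODE M21). Nkx2-1, a homeodomain factor also known as thyroid transcription factor, lies on the minus strand of chromosome 12 (56531958 to 56536908). The promoter windows of these genes are shown because both factors rose in the K146Q thyroid while the ratio between them overlapped its WT range, as described below. Each runs from 250 bases before the RefSeq transcription start to 30 bases after it, 5′ to 3′ on the strand of the gene, at chr2:24475570-24475849 for Pax8 and chr12:56536879-56537158 for Nkx2-1 (GRCm38.p6). Capitals mark matches to the motifs searched.
Pax8: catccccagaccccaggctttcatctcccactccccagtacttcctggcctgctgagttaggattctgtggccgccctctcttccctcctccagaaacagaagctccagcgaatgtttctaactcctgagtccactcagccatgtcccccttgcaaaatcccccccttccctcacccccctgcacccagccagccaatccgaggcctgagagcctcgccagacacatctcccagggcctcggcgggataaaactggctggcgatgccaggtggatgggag
Nkx2-1: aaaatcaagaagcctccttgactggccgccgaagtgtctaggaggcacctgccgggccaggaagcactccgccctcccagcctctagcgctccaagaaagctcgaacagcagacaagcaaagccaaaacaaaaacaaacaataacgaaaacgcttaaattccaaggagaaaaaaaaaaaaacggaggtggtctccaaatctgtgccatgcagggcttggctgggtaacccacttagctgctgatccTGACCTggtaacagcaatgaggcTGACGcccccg

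The motifs, searched on both strands of the whole RefSeq window (300 bases, 50 of them after the start), were the cAMP response element TGACGTCA, its shorter form TGACG, which the longer one contains, the nuclear receptor hexamer AGGTCA, and CTCAAG, the core of sites bound by Nkx2-1. The Nkx2-1 window held AGGTCA once, on the opposite strand and beginning 4 bases before the start, and TGACG once, from base 20 of the transcript. Among all 32851 windows, 16.3% held AGGTCA, 20.8% held TGACG, 15.9% held CTCAAG and 1.79% held TGACGTCA. The windows of Pax8, Hhex and Glis3 held none of the 4 motifs, and these matches are a description of the letters only.

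Foxe1, a forkhead factor of a single exon needed for the migration of the thyroid bud, lies on the plus strand of chromosome 4 (46343609 to 46346412). Hhex, a homeobox factor, lies on the plus strand of chromosome 19 (37434810 to 37440731), and Glis3 lies on the minus strand of the same chromosome (28258851 to 28680077). Pax8, Nkx2-1, Foxe1 and Glis3 each overlap an annotated RNA gene on the opposite strand, and Glis3 also holds one in an intron on its own strand. The only one of these in the tables, D930032P07Rik, which overlaps the start of Glis3 and lies mostly beyond it, was at 0.0991 to 0.253 CPM in the thyroid. Whether the counting used strand is not given in the sources used here, so that reads of such partners cannot be told apart from those of the members.

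In the WT mice, all 5 factors were higher in the thyroid than in the pituitary and than in the hypothalamus, by 14.1-fold or more over the hypothalamus and by 3.13-fold or more over the pituitary (ratio of mean CPM). Over all 16622 genes tested, 36.4% were higher in the thyroid than in the pituitary and 41.5% higher than in the hypothalamus. Foxe1 passed the filter of these fits only through its thyroid libraries. Pax8 passed it through its thyroid libraries and the hypothalamus library of mouse 43 (0.638 CPM). A call as higher in the thyroid was thus all but given for both, and the count of 5 is not read as a result beside these shares. Per kilobase of exon, the scale on which levels of different genes are compared here, Nkx2-1 was at 139 ± 4.33 CPM per kb (SD, n = 3), Foxe1 at 132 ± 6.62, Pax8 at 73.4 ± 3.35, Hhex at 25.7 ± 3.94 and Glis3 at 6.06 ± 1.75. In that order only the first neighbours, Nkx2-1 and Foxe1, overlapped between mice. The order depends on the length used, the union of all annotated exons of a gene. That union was 6061 bases for Pax8, 2842 for Nkx2-1, 2804 for Foxe1, and 5056 for Hhex in a gene of 5922 bases. In CPM not divided by length, Pax8 was highest, at a mean of 445, before Nkx2-1 at 396 and Foxe1 at 371. The plot of the 3 tissues in WT mice shows how far each factor dropped outside the thyroid.

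**Figure D1:**
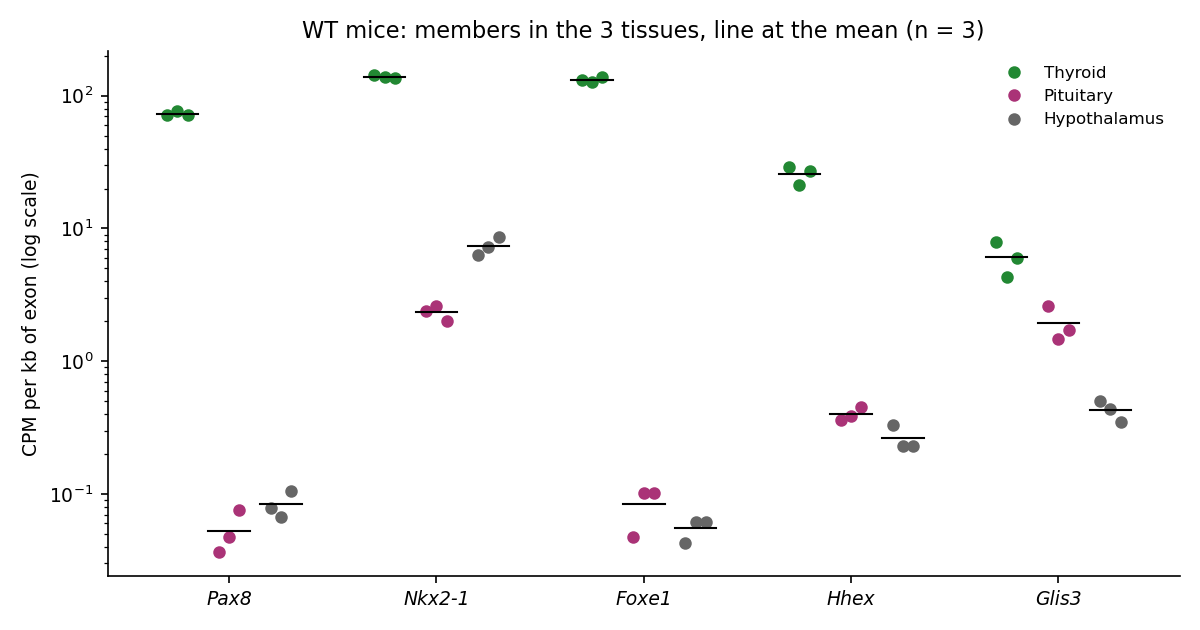
Level of each factor in the thyroid (green), pituitary (purple) and hypothalamus (grey) of the 3 WT mice, in CPM per kb of exon on a log axis, each point a library and each line a mean. Pax8 and Foxe1 drop to about 0.1 CPM per kb or less outside the thyroid, Nkx2-1 keeps a level in the hypothalamus and Glis3 in the pituitary.

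Pax8 and Foxe1 were close to restricted to the thyroid. Pax8 had 435.94, 467.86 and 430.14 CPM in the thyroids of WT mice 1, 2 and 43, and 0.222, 0.286 and 0.456 CPM in their pituitaries. In the hypothalamus it was at 0.477, 0.405 and 0.638 CPM. With 18 reads over the 3 pituitary libraries and 26 over the 3 hypothalamus libraries, these levels were 0.0723% (95% Poisson interval 0.0428 to 0.114%) and 0.114% (0.0744 to 0.167%) of the thyroid level, intervals that cover counting error only.

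Foxe1 had 369.06, 353.01 and 390.02 CPM in the same thyroids. It had 3, 5 and 5 reads in the pituitary and 2, 3 and 3 reads in the hypothalamus. This was 0.0633% (95% Poisson interval 0.0337 to 0.108%) and 0.0420% (0.0181 to 0.0827%) of its thyroid level. Tg, the most abundant thyroid transcript, stood at 0.0441% of its thyroid level in the pituitary and 0.0442% in the hypothalamus, within the Foxe1 intervals for both tissues. Whether those few reads came from the tissue itself was not tested.

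Nkx2-1 had a second, lower level in the hypothalamus. It was at 409.79, 390.54 and 386.9 CPM in the WT thyroids and at 18.1, 20.6 and 24.4 CPM in the hypothalamus of the same mice. In the pituitary it was at 6.76, 7.44 and 5.70 CPM. The hypothalamus thus held 5.31% and the pituitary 1.68% of its thyroid level, and the pituitary lay below the hypothalamus by 1.59 on the log2 scale (log2 fold change -1.59, standard error 0.12, limma adjusted p = 6.6e-07), with no overlap. Between these tissues 72.5% of genes differed in either direction, and 3 of the 5 factors did.

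Glis3 was the factor least restricted to the thyroid. It was at 69.3, 38.4 and 52.9 CPM in the thyroids of WT mice 1, 2 and 43, at 23.0, 12.9 and 15.3 CPM in their pituitaries and at 4.42, 3.87 and 3.08 CPM in the hypothalamus. The pituitary level was 31.9% of that of the thyroid, a log2 fold change of 1.62 for thyroid against pituitary (standard error 0.25, limma adjusted p = 0.00015), and the 3 tissues did not overlap. Glis3 was also higher in the pituitary than in the hypothalamus, by 2.01 on the log2 scale (standard error 0.25, limma adjusted p = 3.1e-05).

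Hhex was at 146.13, 107.82 and 136.46 CPM in the WT thyroids, at 1.82, 1.94 and 2.28 CPM in the pituitary and at 1.67, 1.16 and 1.16 CPM in the hypothalamus. Both other tissues were thus near 1 part in 100 of the thyroid, 1.55% and 1.02%. The pituitary was higher than the hypothalamus by a log2 fold change of 0.47 (standard error 0.16, limma adjusted p = 0.0244), on 20 to 41 reads per library. That call was lost without mouse 2 or 43 of the hypothalamus (adjusted p = 0.0790 and 0.0775), without mouse 43 of the pituitary (adjusted p = 0.0772) and in DESeq2 (adjusted p = 0.0655).

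Compared with a list of 10 genes of hormone synthesis and metabolism, called products here, the factors kept more of their level outside the thyroid at the median. The members' median was 1.55% of the thyroid level in the pituitary and 1.02% in the hypothalamus, against 0.251% and 0.333% for the products. The ranges overlapped, since the products ran from 0.0393 to 4.58% in the pituitary and from 0.0442 to 6.57% in the hypothalamus. The highest product in the pituitary, Duox1, rested on 6 reads, and the highest in the hypothalamus, Slc5a5, on 1647. No test was made of this difference.

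The question of the genotype comparison was how the axis from hypothalamus to thyroid differs where the receptor lacks this lysine. In the thyroid, Pax8, Nkx2-1 and Hhex rose and Foxe1 fell in K146Q mice, while Glis3 was lower on average without passing the test. The 3 rises were by 1.31-fold, 1.30-fold and 1.57-fold and the fall left Foxe1 at 69.4% of its WT level (ratios of mean CPM). Of all 15200 genes tested in the thyroid, 37.8% passed the test, 19.7% as higher and 18.1% as lower in K146Q mice, and 52.3% did not overlap between the genotypes. A count of 4 of 5 called members, or of 4 that do not overlap, is to be read against these shares. In whole tissue, fewer cells of a type and less RNA per cell cannot be told apart.

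**Figure D2:**
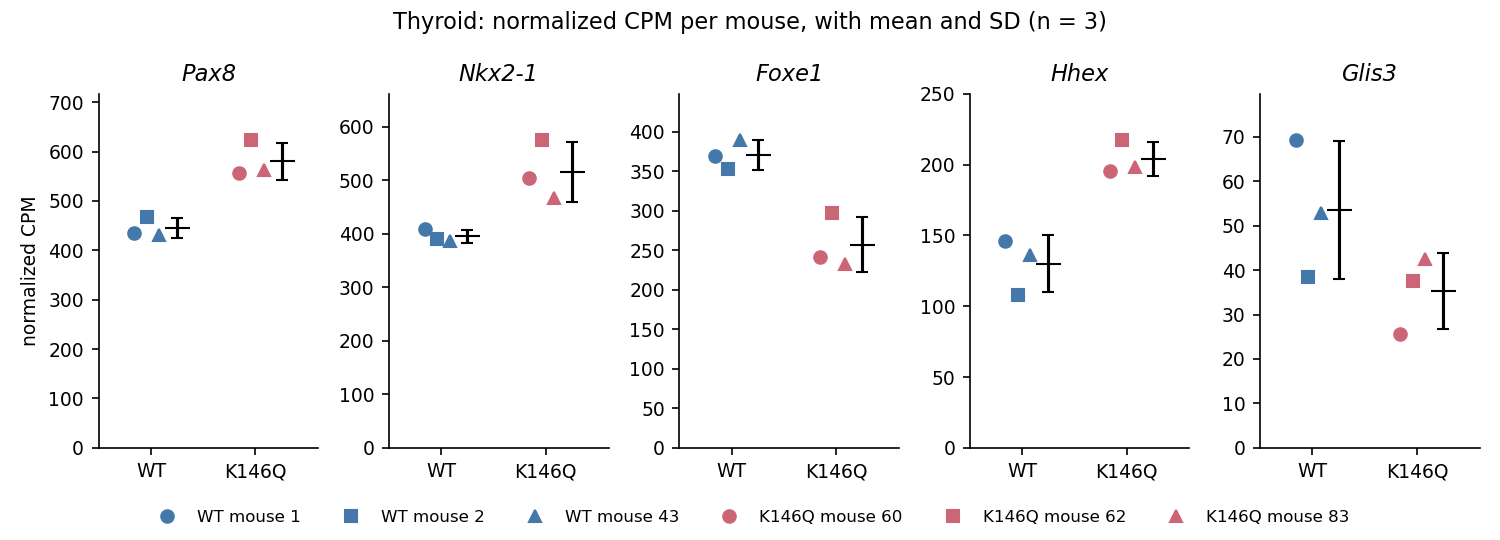
Normalized CPM of each factor in the thyroid of each mouse, WT in blue and K146Q in red, with the mean and SD (n = 3) in black beside the points. The genotypes are apart for Pax8, Nkx2-1, Foxe1 and Hhex, with Foxe1 the only one of these lower in K146Q mice, and overlap for Glis3.

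The WT thyroids had 435.94, 467.86 and 430.14 CPM of Pax8 (mice 1, 2 and 43), and the K146Q thyroids 556.0, 623.99 and 561.71 CPM (mice 60, 62 and 83). All 3 K146Q thyroids lay above all 3 WT thyroids. The log2 fold change was 0.38 (standard error 0.0987, 95% interval 0.15 to 0.61, limma adjusted p = 0.0190, exact permutation p = 0.1).

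Nkx2-1 moved by nearly the same amount. Its WT values of 409.79, 390.54 and 386.9 CPM lay within a narrow range, and its K146Q values of 504.11, 576.15 and 466.75 CPM were all higher. The log2 fold change was 0.38 (standard error 0.11, 95% interval 0.13 to 0.63, limma adjusted p = 0.0275, exact permutation p = 0.1).

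These small rises depended on the mice included. The Pax8 call was lost without K146Q mouse 62 (limma adjusted p = 0.0921), WT mouse 1 (0.0677) or WT mouse 43 (0.0617), and the Nkx2-1 call without K146Q mouse 60 (0.0574), K146Q mouse 62 (0.115), WT mouse 1 (0.0600) or WT mouse 43 (0.0765). The log2 fold changes stayed between 0.33 and 0.42 for Pax8 and between 0.29 and 0.45 for Nkx2-1.

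Foxe1 went the other way. WT thyroids had 369.06, 353.01 and 390.02 CPM and K146Q thyroids 241.67, 297.18 and 232.84 CPM, so that the highest K146Q value lay below the lowest WT value. The log2 fold change was -0.53 (standard error 0.11, 95% interval -0.80 to -0.27, limma adjusted p = 0.00875, exact permutation p = 0.1). The call held without any 1 of the 6 mice, with adjusted p from 0.00888 to 0.0316. Per kilobase of exon, Foxe1 in K146Q thyroids, at 91.7 ± 12.4 CPM per kb (SD, n = 3), overlapped Pax8 at 95.8 ± 6.22. In WT thyroids Foxe1 lay above Pax8 in every mouse on that scale, but below it in every mouse in CPM not divided by length.

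Hhex had the largest rise of the members, from 146.13, 107.82 and 136.46 CPM in WT thyroids to 195.53, 217.61 and 198.55 CPM in K146Q thyroids. No K146Q value reached down to the WT range. The log2 fold change was 0.66 (standard error 0.12, 95% interval 0.37 to 0.94, limma adjusted p = 0.00500, exact permutation p = 0.1), and it passed the test without any 1 of the 6 mice.

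Glis3 was at 69.3, 38.4 and 52.9 CPM in WT thyroids and 25.7, 37.6 and 42.4 CPM in K146Q thyroids. The highest K146Q value exceeded the lowest WT value, that of mouse 2. The log2 fold change of -0.59 (standard error 0.25, 95% interval -1.16 to -0.01, limma adjusted p = 0.0972, exact permutation p = 0.2) was as large as that of Foxe1, with a standard error more than double. Without WT mouse 2 it passed the test (log2 fold change -0.80, adjusted p = 0.0329). Without WT mouse 1, whose Glis3 was the highest of both the thyroid and the pituitary libraries, it was -0.38 (limma adjusted p = 0.246).

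Some genes of epithelial, endothelial, leukocyte and proliferation lists also differed in the thyroid samples. Of 6 epithelial genes (Epcam, Cdh1, Krt8, Krt18, Krt7, Cldn3), 4 were higher and 1, Krt7, lower in K146Q thyroids, and their sum was 2019 to 2470 CPM in WT and 2854 to 3038 CPM in K146Q mice. Of 6 endothelial genes 3 were higher, with sums of 639 to 742 CPM and 829 to 892 CPM. Of the leukocyte list 3 of 5 tested genes were higher, and its sum was 82.5 to 104 CPM in WT and 185 to 194 CPM in K146Q mice. All 6 proliferation genes were higher, with sums of 49.6 to 74.8 CPM and 177 to 225 CPM. Whether the make-up of cells differed, and its part in the Hhex value or in that of any other factor, was not tested.

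When each library was scaled to its summed epithelial genes, Pax8 and Nkx2-1 were level with WT (log2 fold changes 0.0330 and 0.0260, limma adjusted p = 0.845 and 0.867). On that scale Hhex remained higher (0.31, limma adjusted p = 0.0315), Foxe1 remained lower (-0.88, limma adjusted p = 0.000458) and Glis3 was now called lower (-0.93, limma adjusted p = 0.00437). Scaled to the endothelial genes, Hhex was higher by 0.35 without passing the test (limma adjusted p = 0.0989). These scalings, added after the data were seen, moved the median of all genes to -0.36 and -0.31, from -0.03 with the authors' scaling, and called 1535 genes higher and 6212 lower, and 1574 and 6047. Relative to that median, the log2 difference of Pax8 was 0.41 with the authors' scaling, 0.39 scaled to epithelial genes and 0.39 scaled to endothelial genes. That of Foxe1 was -0.51, -0.53 and -0.52. A scaling by 1 factor per library moves all genes together, so the likeness of these values was all but fixed and nothing is read from it.

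The scaling of these libraries is touched by Tg itself, which took 293440 to 357300 CPM in WT and 83869 to 130420 CPM in K146Q thyroids. With totals taken without the 10 highest genes, the median of all genes moved to -0.12, and 2494 genes were higher and 3610 lower, in place of 2992 and 2747. Pax8 and Nkx2-1 then no longer passed (log2 fold changes 0.29 and 0.28, limma adjusted p = 0.0585 and 0.0666), and Glis3 did (-0.68, limma adjusted p = 0.0469). Relative to the median of all genes, Pax8 stood at 0.40, Nkx2-1 at 0.40, Foxe1 at -0.51, Hhex at 0.68 and Glis3 at -0.56. This too was 1 factor per library, which all but fixes these values. With quantile normalization, which does not move all genes together, the rises of Pax8 and Nkx2-1 were 0.13 each (limma adjusted p = 0.391 and 0.371). Foxe1 and Hhex kept their calls. Relative to the median of all genes, Pax8 and Nkx2-1 then stood at 0.18 each, Foxe1 at -0.65, Hhex at 0.64 and Glis3 at -0.56.

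**Figure D3:**
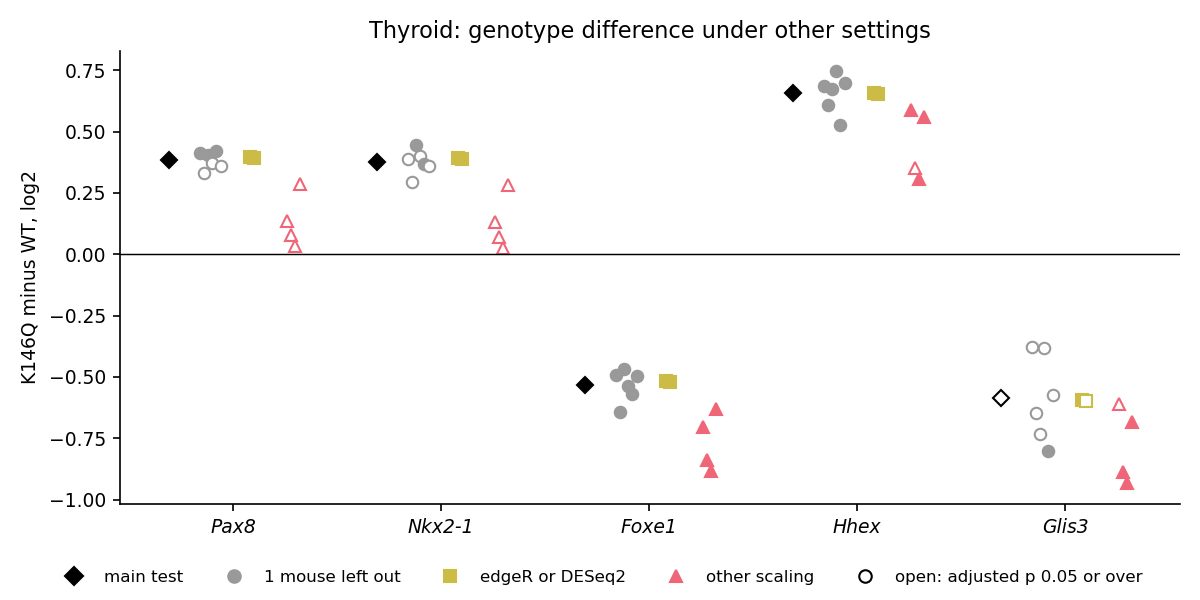
Difference between K146Q and WT thyroids (log2) of each factor with the main value (black), with 1 mouse left out (grey), with edgeR or DESeq2 on recovered reads (yellow) and with quantile normalization, totals without the 10 highest genes and the epithelial and endothelial scalings (red), filled where the adjusted p is under 0.05. No factor changes direction, and the 4 scalings in red lie below the main value for each of the 5 factors.

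Ratios between factors within a library do not depend on how libraries were scaled. The log2 ratio of Pax8 to Nkx2-1 was 0.17 ± 0.0866 in WT thyroids and 0.17 ± 0.0813 in K146Q thyroids (SD, n = 3), a difference of 0.00697 (exact permutation p = 0.9). The ratio of Foxe1 to Glis3 also overlapped, with a difference of 0.06 between genotypes (exact permutation p = 0.7). The other 8 of the 10 pairs did not overlap between genotypes. Each had the smallest p the exact permutation test can give, 0.1 (0.125 adjusted over the 10 pairs). The pairs are built from the same factors, so the 8 are not independent of each other or of the single-factor differences above. Among single genes tested in the thyroid, 52.3% did not overlap between the genotypes. No such share is given here for ratios of other gene pairs, so the count of 8 has no background to be read against.

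The pairs with the largest differences joined a factor that rose with one that was lower. The log2 ratio of Hhex to Glis3 was 1.31 ± 0.21 in WT and 2.56 ± 0.35 in K146Q thyroids (SD, n = 3), higher by 1.25. That of Foxe1 to Hhex was 1.52 ± 0.19 in WT and 0.33 ± 0.11 in K146Q thyroids (SD, n = 3), lower by 1.19. The differences were 0.98 for Pax8 to Glis3 and 0.97 for Nkx2-1 to Glis3. The ratio of Pax8 to Foxe1 went from 0.26 ± 0.13 to 1.18 ± 0.10, and that of Nkx2-1 to Foxe1 from 0.10 ± 0.0924 to 1.01 ± 0.0529. The log2 ratio of Pax8 to Hhex was 1.78 ± 0.29 in WT and 1.51 ± 0.00980 in K146Q thyroids (SD, n = 3), a difference of -0.27.

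**Figure D4:**
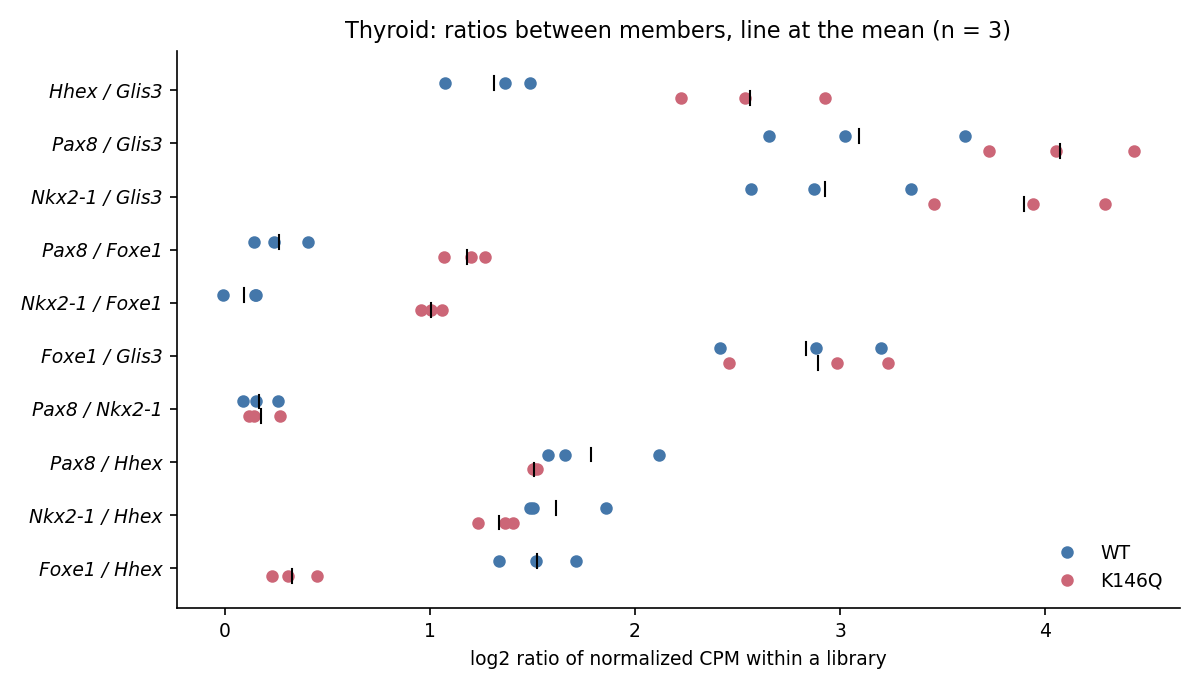
Log2 ratio of normalized CPM for each of the 10 pairs of factors within each thyroid library, WT in blue and K146Q in red, with a line at each mean (n = 3). Only Pax8 to Nkx2-1 and Foxe1 to Glis3 overlap between the genotypes, and Foxe1 to Hhex lies between 1.34 and 1.71 in WT and between 0.23 and 0.45 in K146Q mice.

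The genes of hormone synthesis and metabolism did not follow the factors as a group. Of the 10 products, 0 were called higher and 2 lower in K146Q mice. Their median log2 fold change was -0.03, the same as over all genes. Duox2, the oxidase that makes hydrogen peroxide for iodination, fell from 71.2 to 82.2 CPM in WT mice to 32.3 to 48.2 CPM in K146Q mice (log2 fold change -0.95, limma adjusted p = 0.00207). Slc26a7, an anion transporter of follicular cells, fell from 532 to 638 CPM to 172 to 219 CPM (-1.51, limma adjusted p = 0.000159). Slc5a5, the iodide symporter, was at 376 to 630 CPM and 502 to 666 CPM (0.29, limma adjusted p = 0.288). Tg did not overlap, but lies so far above other genes that the variance trend gave its log2 fold change of -1.71 a standard error of 5.14, and limma with the trend could not call it.

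Close relatives of the factors were mostly absent from the thyroid. Of 11 paralogs, 3 reached the filter. Nkx2-2, a homeodomain relative of Nkx2-1, was at 33.0 to 51.5 CPM in WT and 108 to 143 CPM in K146Q thyroids, a log2 fold change of 1.54 (standard error 0.17, limma adjusted p = 0.000607). Glis2, a relative of Glis3, fell from 23.6 to 31.8 CPM to 18.7 to 20.9 CPM (-0.47, limma adjusted p = 0.0215). Nkx2-9 did not pass (0.12, limma adjusted p = 0.778).

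Of 16 partners and cofactors, 2 were called higher and 1 lower in the thyroid, with a median log2 fold change of -0.01 beside -0.03 over all genes. Wwtr1 encodes TAZ, a coactivator that binds Pax8 and Nkx2-1. It rose with them, from 88.3 to 102 CPM in WT to 131 to 149 CPM in K146Q thyroids (log2 fold change 0.59, limma adjusted p = 0.00209), while its relative Yap1 had a log2 fold change of 0.04 (limma adjusted p = 0.727). Foxp4 was higher by 0.22 (limma adjusted p = 0.0357), and Foxp2, a forkhead factor, fell from 11.3 to 13.3 CPM to 2.70 to 4.26 CPM (-1.78, limma adjusted p = 0.000375).

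In the pituitary, none of the 3 factors above the filter passed the test (0 of 3), where 9.85% of 15586 genes did. The WT values of Nkx2-1 were 6.76, 7.44 and 5.70 CPM and its K146Q values 5.88, 4.34 and 4.46 CPM. The 2 groups overlapped through K146Q mouse 60 and WT mouse 43, and the log2 fold change was -0.41 (standard error 0.16, 95% interval -0.77 to -0.04, limma adjusted p = 0.153, exact permutation p = 0.2). The posterior lobe, which arises from the Nkx2-1 domain of the forebrain, is marked by Rax, at 5.47 to 7.21 CPM in WT and 4.44 to 5.52 CPM in K146Q pituitaries (-0.33, limma adjusted p = 0.206). Of the 5 posterior lobe genes 0 were called. The log2 fold changes of the other 4 were -0.57 for Vax1 (limma adjusted p = 0.0857), 0.13 for Adm, 0.13 for Col25a1 and 0.0316 for Scn7a, and the list median was 0.0316. The part of tissue composition in the Nkx2-1 value was not tested.

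Glis3 in the pituitary was at 23.0, 12.9 and 15.3 CPM in WT and 15.1, 15.7 and 15.7 CPM in K146Q mice, the K146Q values lying within the WT range (log2 fold change -0.10, 95% interval -0.50 to 0.31, limma adjusted p = 0.784). Hhex was at 1.82, 1.94 and 2.28 CPM and at 2.12, 2.09 and 2.41 CPM (0.11, 95% interval -0.26 to 0.47, limma adjusted p = 0.735). Pax8, at 5 to 9 reads a library, and Foxe1, at 2 to 8 reads, were left out by the filter, and in a fit without it their adjusted p was 0.921 and 0.875 (limma). At this depth a difference in these factors was not detectable.

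In the hypothalamus 0 of 3 tested factors passed, as did 0% of 15758 genes with limma. With an unadjusted p under 0.05 there were 644 genes, and edgeR called 0 and DESeq2 9 genes. Nkx2-1, the factor that marks the hypothalamus, was at 18.1, 20.6 and 24.4 CPM in WT and 18.2, 16.5 and 26.2 CPM in K146Q mice. The genotypes overlapped throughout, and the log2 fold change of -0.07 had a 95% interval of -0.42 to 0.29 (limma adjusted p = 0.998). Glis3 was at 4.42, 3.87 and 3.08 CPM and at 4.588, 4.603 and 4.088 CPM (0.21, 95% interval -0.12 to 0.54, limma adjusted p = 0.998), and Hhex had a log2 fold change of 0.07 (95% interval -0.40 to 0.55). Pax8 had 5 to 19 reads a library and Foxe1 1 to 3, so that no fold is given for Foxe1.

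**Figure D5:**
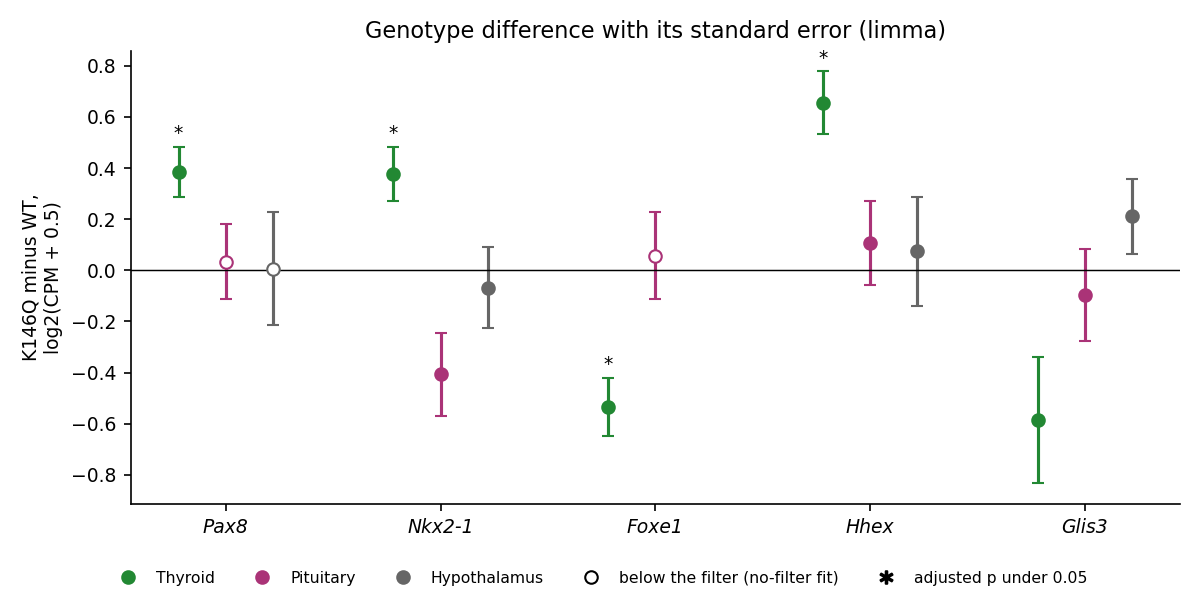
Difference between K146Q and WT mice in log2(CPM + 0.5) for each factor in the thyroid (green), pituitary (purple) and hypothalamus (grey), with the standard error from limma. Open points are factors below the filter, asterisks mark an adjusted p under 0.05, and Foxe1 in the hypothalamus, at 1 to 3 reads, is not drawn. The 4 asterisks are all in the thyroid, where Foxe1 alone of the called factors is below 0.

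Whether the genotype difference itself differed between tissues was tested over all 18 libraries. Foxe1 entered these fits through its thyroid libraries alone. Pax8 entered through its thyroid libraries and the hypothalamus libraries of WT mouse 43 (0.638 CPM) and K146Q mouse 62 (0.951 CPM). At 2 to 9 reads in a pituitary library, the pituitary side of both could hardly show a change on the log2(CPM + 0.5) scale. Between thyroid and pituitary 33.8% of all genes passed. For Nkx2-1, the log2 fold change in the thyroid exceeded that in the pituitary by 0.78 (standard error 0.22, limma adjusted p = 0.011). The value for Foxe1 was -0.59 (standard error 0.22, limma adjusted p = 0.0476), which largely repeats its thyroid value of -0.53, and neither edgeR (adjusted p = 0.241) nor DESeq2 (adjusted p = 0.311) called it, so that no difference between tissues is read from it. Hhex (0.55, limma adjusted p = 0.0719), Pax8 (0.35, limma adjusted p = 0.326) and Glis3 (-0.49, limma adjusted p = 0.249) did not pass.

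Between thyroid and hypothalamus 0 of 5 factors passed, where 30.8% of genes did. The nearest were Hhex (0.58, limma adjusted p = 0.0610) and Glis3 (-0.80, limma adjusted p = 0.0635). With the mouse number as a replicate block, Glis3 passed (limma adjusted p = 0.0487) and Hhex was at adjusted p = 0.0501.

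Across all 18 libraries, log2 levels of the 5 factors were correlated with each other, which is a description of how their levels stand in the 3 tissues, since most of the spread lies between tissues. Pearson's r was 0.996 for Pax8 and Foxe1 and 0.992 for Pax8 and Hhex, and lowest for Nkx2-1 and Glis3, at 0.605. Among 14152 genes with at least 1 CPM on average in the WT thyroid, those most like Foxe1 were Ces1e (r = 0.998), Calml3 (0.997) and Dpt (0.996). Calml3 (0.998) and Duoxa2 (0.997) stood among the 3 nearest to Pax8, and Zfp36l1, Hoxb3 and Ager, at 0.996 to 0.997, were nearest to Hhex.

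The genes most like Nkx2-1 were Afap1l2 (r = 0.995), Slc16a11 (0.994) and Aif1l (0.994). Each shared its order of thyroid, hypothalamus and pituitary, as Slc16a11 did with means of 124.4, 23.30 and 12.98 CPM in WT mice. For Glis3 they were Kif16b, Vps54 and Znrf2 (r = 0.987 to 0.989), in the order thyroid, pituitary and hypothalamus, with 124, 47.2 and 15.2 CPM for Kif16b in WT mice. Kif16b was at 76.9 CPM on average in the K146Q thyroid.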

How the data were processed

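RNA-Seq of 3 tissues from 3 WT and 3 K146Q mice was analysed, with groups and mouse numbers taken from the labels. For each tissue the authors deposited a normalized signal per gene and library, in CPM after 1 scaling factor per library. The factors multiply to 1 over the 18 libraries, so a joint normalization was inferred and tissues were compared. Their own log2 fold changes, average levels, p-values and FDR were not used. The submitters' processing notes name bcl2fastq 2.17, Bowtie2 2.1.0, RSEM 1.2.15 and mm10. Whole reads were recovered for 100% of 432972 values, within 0.01 read or, for large values, the rounding of the file.

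The main test was limma 3.58.1 (R 4.3.3) with a mean-variance trend, each tissue alone for genotypes, 9 WT libraries for tissues and 18 libraries for differences of effects. The plan covered counts and CPM, and the CPM plan applied. Alternatives were other pseudocounts, filters and scalings, no trend, edgeR 4.0.16 and DESeq2 1.42.0 on recovered reads, each mouse left out, and mouse number as a block. Deviations of same-numbered libraries from their group means correlated between -0.027 and 0.174 over 18 pairs, and the pairing comes from the mouse numbers and the study design. On simulated thyroid data, limma recovered 95.0% of genes changed by 1 on the log2 scale among 15030 genes. For the difference of effects between thyroid and pituitary it recovered 74.7% of such genes. The simulation changed 200 genes, gave every gene the same dispersion and held no change smaller than 1. It therefore does not give the power for the smaller differences of the factors. Named genes were the members, genes of 16 other lists and the 3 genes most correlated with each member. Members and lists were chosen with earlier results of these data known, and a few thyroid genes are not reported here. Lengths and coordinates are from GENCODE M21 (GRCm38), promoters from RefSeq (GRCm38.p6), matched by symbol for 4 of 5 members; Foxe1 has no window here. With 3 mice a group, each limma p-value sets a difference against a spread between mice that is partly estimated from all genes tested.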

Additional observations from a re-analysis of the deposited data

Results flagged for a closer look

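The genotype difference of Nkx2-1 differed between thyroid and pituitary in the test of that difference (limma, all 18 libraries). In the thyroid all 3 K146Q values of Nkx2-1 lay above all 3 WT values. Of all genes tested there, 52.3% did not overlap between the genotypes. That rise was called in 2 of 6 fits without 1 mouse, and was 0.13 with quantile normalization (limma adjusted p = 0.371). The pituitary difference was not called (-0.41, limma adjusted p = 0.153). The thyroid difference exceeded it by 0.78 on the log2 scale (adjusted p = 0.011), in a test that 33.8% of all genes passed. The call was kept when any 1 of the 18 libraries was left out (adjusted p 0.00324 to 0.0334). The same test gave -0.59 for Foxe1 (limma adjusted p = 0.0476), but at 2 to 8 reads in a pituitary library the pituitary side could not show a change on this scale, so that the value largely repeats the fall in the thyroid and is not read as a difference between tissues. Its call was lost in edgeR (adjusted p = 0.241), in DESeq2 (adjusted p = 0.311) and in 14 of 18 fits that left out 1 library.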

How the results depend on the processing

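In the thyroid, 69 of 90 values of single factors under other settings kept direction and side of the threshold, 16 lost the call, 5 gained one and 0 turned; Foxe1 lost none. Under quantile normalization 2 of the 4 calls remained, Pax8 and Nkx2-1 standing at 0.13 each on the log2 scale. Scaled to endothelial genes 2 factors were called (Pax8 0.0778, Nkx2-1 0.0708, Hhex 0.35, Glis3 -0.89), and scaled to epithelial genes 3 (Pax8 0.0330, Nkx2-1 0.0260, Glis3 -0.93). With totals without the 10 highest genes the values were 0.29, 0.28 and -0.68 for Pax8, Nkx2-1 and Glis3, and DESeq2 called Glis3 at -0.59. Leaving out 1 thyroid library left 2 to 5 factors called, with Pax8 at 0.33 to 0.42, Nkx2-1 at 0.29 to 0.45 and Glis3 at -0.80 to -0.38. The cause was not tested. It left 3602 to 5106 genes called in place of 5739, the lowest without K146Q mouse 62.

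Leaving out 1 library turned values that were not called: Nkx2-1 in the hypothalamus ran from -0.26 to 0.0630, Hhex there from -0.10 to 0.21, and Glis3 in the pituitary from -0.27 to 0.14. Genes called in the pituitary went from 1536 to 625 without K146Q mouse 60, 751 without K146Q mouse 62, and those in the hypothalamus from 0 to 6 without K146Q mouse 83. With at least 1 CPM in every library, 3 factors remained in the tests of the WT thyroid against the pituitary and the hypothalamus, and all 3 were called, since Pax8 and Foxe1 were left out by construction. No tissue value turned, although totals without the 10 highest genes moved the median of all genes to -0.26 for thyroid against pituitary (4707 genes higher and 7890 lower, in place of 6056 and 6372).

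Of the differences of genotype effects, thyroid against pituitary gave 1 factor, Nkx2-1, in place of 2 (with Foxe1) with a pseudocount of 0.1, without the filter, with the stricter filter, with median-of-ratios factors, in edgeR or in DESeq2 (3 with a pseudocount of 1), and 1 or 2 when 1 library was left out. Thyroid against hypothalamus gave 2 factors with a pseudocount of 1 (Foxe1 and Hhex), 1 with totals without the 10 highest genes, and 0 to 2 with 1 library left out. There Foxe1 turned to 0.19 in edgeR and 0.27 in DESeq2, on 1 to 3 reads in the hypothalamus. With the mouse number as a replicate block, 1 factor passed in that comparison, Glis3, and the block changed no other call.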
